A study of Mus musculus with 9 samples.

Results

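The transcripts of 9 claudin and tight junction proteins (Cldn1, Cldn3, Cldn4, Cldn5, Cldn7, Cldn12, Ocln, Tjp1 and F11r) were followed in mouse fibroblasts. They were found by symbol among 27024 transcript clusters, the units in which the array summarises its probes, and made up 9 of the 19698 genes tested. The representative cluster of a gene was chosen by its mean signal over all arrays, the highest being kept. Each of the 9 had exactly 1 cluster that carried its symbol alone, so that choice decided nothing. The family was put together with the high Cldn1 signal of the knockdown cells already known, so the Cldn1 p-values below describe these arrays and are not independent evidence.

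The study asked how promoters of inducible genes depend on the BAF complex, which uses ATP to move nucleosomes. There were 3 groups of 3 arrays, all from 3T3 cells, an immortalised mouse embryo fibroblast line. The first group held cells with stable knockdown of BAF that were exposed for 1 h to TNF-α, at 5 ng per ml. The second held control cells with the same TNF-α treatment, and the third held control cells left unstimulated. The knockdown used 1 short hairpin RNA, driven by a U6 promoter in a retroviral vector with GFP and aimed at a sequence shared by Brg1 (gene Smarca4) and Brm (gene Smarca2), the ATPases of BAF, and the cells were sorted for high GFP. Since a single hairpin was used, what follows from BAF loss and from any other target of that hairpin cannot be told apart. The sources do not say what the control cells carried, and unstimulated knockdown cells were not analysed here. According to the methods, the replicates were independent and made on different days.

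Tight junctions seal the space between neighbouring epithelial or endothelial cells. Their strands are built of claudins, small proteins that cross the membrane several times, together with occludin and the junctional adhesion molecules, and scaffold proteins of the ZO family tie the strands to actin. Claudin genes are used in tissue-specific combinations, and fibroblasts do not normally form tight junctions although they can hold ZO scaffolds at their adherens junctions.

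Signals are log2 values, so a difference of 1 unit is a doubling, and a signal can be compared between arrays for the same gene but not between genes. The signal of Smarca4 was 10.50, 10.64 and 10.25 in the knockdown cells, against 11.62, 11.53 and 11.56 in TNF-treated control cells. Smarca4 was thus lower on every knockdown array, by 1.11 (log2), with an adjusted p of 0.00362 by limma. Smarca2 had 9.12, 9.38 and 9.12 in the knockdown cells and 9.51, 9.81 and 9.39 in TNF-treated control cells. These groups did not overlap, but the difference of -0.36 did not pass the test (limma adjusted p = 0.734). By replicate number the Smarca2 differences were -0.39, -0.43 and -0.26, lower in 3 of 3 pairs. A fit with the replicate number as a block did not call Smarca2 either (limma adjusted p = 0.129). The paper measured both transcripts by quantitative RT-PCR, another method than the arrays, and reports that the hairpin reduced both. The reduction it gives is larger than the 2.15-fold for Smarca4 and 1.29-fold for Smarca2 seen here against TNF-treated control cells.

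Cldn1 was the member that set the knockdown cells apart. Claudin-1, its product, is a strand-forming claudin of the epidermis and many other epithelia. The Cldn1 signal (transcript cluster 10438769, gene ID 12737) was 9.10, 8.02 and 9.48 in knockdown cells 1, 2 and 3, against 6.00, 6.38 and 6.20 in TNF-treated control cells and 6.40, 6.53 and 6.27 in unstimulated control cells. The lowest knockdown array lay more than 1 unit above the highest of the 6 control arrays, and knockdown array 2 was the lowest of its group. In means, Cldn1 stood at 8.87 ± 0.76 in knockdown cells, 6.20 ± 0.19 in TNF-treated control cells and 6.40 ± 0.13 in unstimulated control cells (SD, n = 3 each). Both control means fell below the first quartile of the named genes on their arrays, which ran from 6.59 to 6.67 over the 9 arrays, and the knockdown mean did not. The values hold no detection call, so it is not known whether any Cldn1 RNA was present in control cells, and the fold below is a fold of signal.

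Knockdown exceeded TNF-treated control cells by 2.67 (log2) for Cldn1, which is a 6.38-fold higher signal, with a standard error of 0.31 and a 95% interval from 1.96 to 3.38. The adjusted p was 0.0241 by limma with Benjamini-Hochberg adjustment over all genes, and Cldn1 ranked 13 among 19698 genes by p. Against unstimulated control cells the knockdown cells were higher by 2.47 (interval from 1.76 to 3.18), a 5.53-fold difference with a limma adjusted p of 0.0131. The 2 comparisons share the knockdown arrays. Pairing the arrays by replicate number gave differences of 3.10, 1.64 and 3.28 from TNF-treated control cells, so that every pair went the same way and pair 2 differed least. Knockdown array 2 was also the one with the highest Smarca4 signal in its group, and the part this has in its lower Cldn1 signal was not tested. In a bulk sample, a few cells with much Cldn1 RNA and many cells with little cannot be told apart.

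In the fit without a replicate block, the Cldn1 call against TNF-treated control cells rested on having nearly all arrays. Leaving out 1 array at a time kept the difference between 2.37 (without knockdown array 3) and 3.10 (without knockdown array 2). The limma adjusted p then lay between 0.000294 and 0.150, and the call was lost in 6 of 9 such fits. It was lost without unstimulated control array 1 (limma adjusted p = 0.0824), without TNF-treated control arrays 1, 2 or 3 (0.150, 0.0678 and 0.145), and without knockdown arrays 1 or 3 (0.118 and 0.0719). Against unstimulated control cells, the call was lost without unstimulated control arrays 1 or 3 (limma adjusted p = 0.0818 and 0.0546) and without knockdown array 1 (0.0742), over differences from 2.16 to 2.89. Arrays were not left out of the fit with the block, so how far its Cldn1 call depends on single arrays was not tested.

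**Figure D1:**
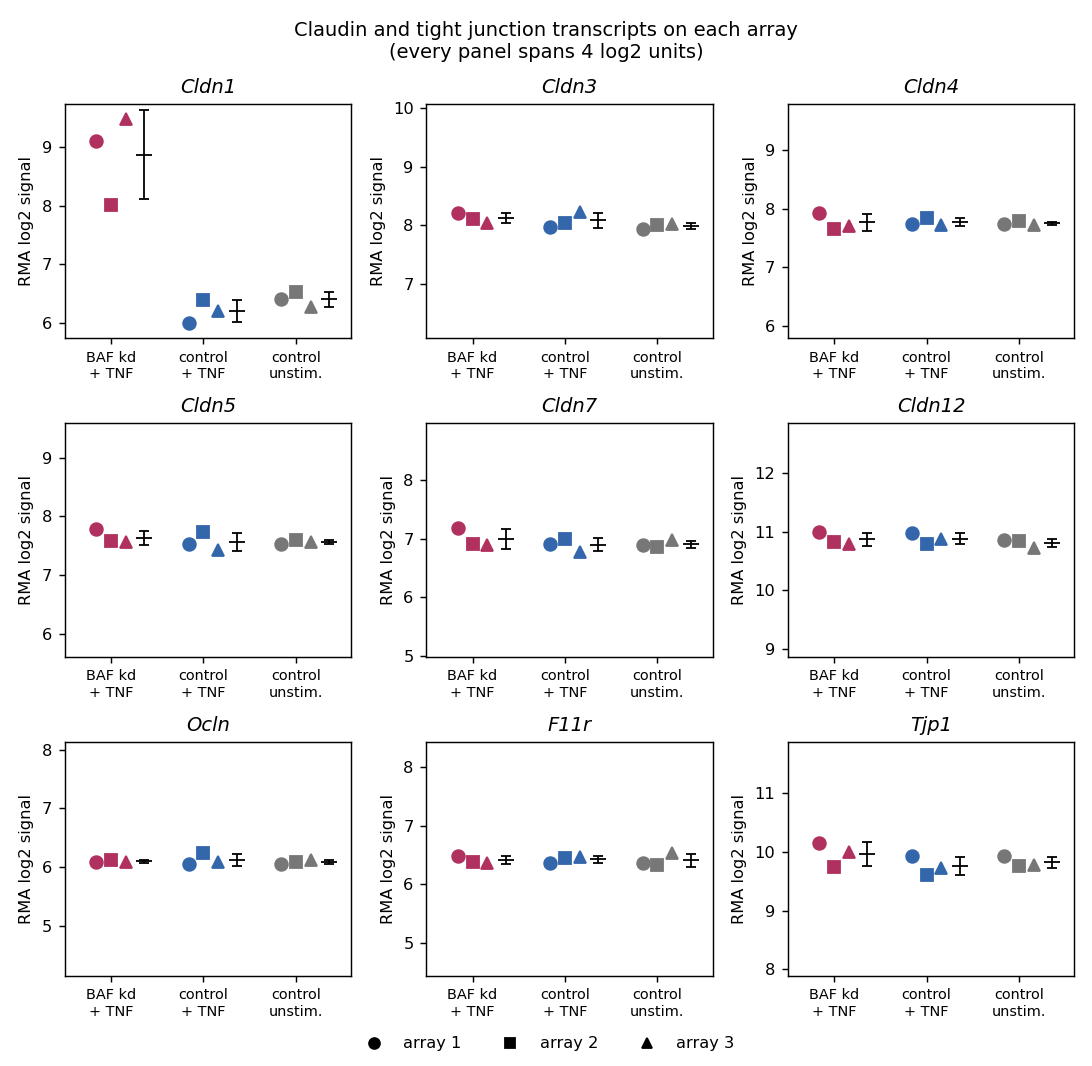
RMA log2 signal of each of the 9 transcripts on each array, in BAF-knockdown cells with TNF, control cells with TNF and unstimulated control cells. Symbols mark array 1, 2 and 3 of a group, horizontal ticks the mean and error bars the SD, and every panel spans 4 log2 units. The Cldn1 knockdown arrays lie between 8.02 and 9.48 and its control arrays between 6.00 and 6.53, while the other 8 transcripts move by at most 0.54 over all 9 arrays.

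The promoter of Cldn1 is shown next to those of Cldn3, a claudin whose signal moved little, and Tjp1, the member with the second highest difference. Each is the 250 bases before the annotated start, from RefSeq (GRCm38.p6), written 5′ to 3′ on the gene's strand, and capitals mark CpG dinucleotides. Cldn1 lies on the minus strand (chr16:26371840-26372089), Cldn3 on the plus strand (chr5:134985964-134986213) and Tjp1 on the minus strand (chr7:65371245-65371494).
Cldn1 promoter: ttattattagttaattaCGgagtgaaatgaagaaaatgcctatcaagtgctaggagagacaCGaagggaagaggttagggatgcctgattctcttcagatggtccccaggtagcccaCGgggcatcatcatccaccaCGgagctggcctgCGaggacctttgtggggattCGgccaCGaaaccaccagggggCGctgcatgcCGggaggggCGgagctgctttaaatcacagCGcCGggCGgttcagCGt
Cldn3 promoter: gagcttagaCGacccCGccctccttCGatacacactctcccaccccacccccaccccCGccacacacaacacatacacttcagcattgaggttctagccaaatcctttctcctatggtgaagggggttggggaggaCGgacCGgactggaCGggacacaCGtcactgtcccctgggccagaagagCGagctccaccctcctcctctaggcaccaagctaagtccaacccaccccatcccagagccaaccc
Tjp1 promoter: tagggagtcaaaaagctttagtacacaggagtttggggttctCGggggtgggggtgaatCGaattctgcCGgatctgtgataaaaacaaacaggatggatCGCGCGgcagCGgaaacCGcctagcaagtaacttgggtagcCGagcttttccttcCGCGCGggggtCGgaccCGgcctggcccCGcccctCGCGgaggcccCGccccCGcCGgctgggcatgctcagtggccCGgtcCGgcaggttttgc
The Cldn1 window held 14 CpGs, against 9 for Cldn3 and 22 for Tjp1.

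All 9 members were found in the promoter table, with 13 annotated promoters between them. Over windows of 300 bases, which add 50 bases after the start, the Cldn1 promoter had 56.0% G and C and an observed-to-expected CpG ratio of 0.638. The medians of all 32851 promoters were 52.67% and 0.384. With G and C above 50% and a ratio above 0.6, as used in the methods for CpG islands but over another window, 7 of the 13 member promoters were CpG-rich, against 33.3% of all promoters. They belonged to Cldn1, Cldn12, Ocln, Tjp1 and F11r. The promoters of Cldn3, Cldn4, Cldn5 and Cldn7 did not pass, so the member that rose shared this feature with 4 members that did not pass the test.

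The E-box letters CACCTG, which repressors of the Snail and ZEB families are known to bind, were searched on both strands. They occurred in 6 of the 13 member promoters, belonging to Cldn3, Cldn4, Cldn7, Ocln and F11r, against 20.2% of all promoters. The 300 bases at the Cldn1 start held none. A match is a string of letters and not a measured binding site.

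Of the 9 members, 1 was called between knockdown and TNF-treated control cells at a limma adjusted p under 0.05, against 0.137% of all genes in either direction and 0.0355% in the upward direction. The groups did not overlap for 1 of the 9, again Cldn1, against 10.1% of all genes. A difference over 0.3, the size the methods used, was also reached by 1 of 9, against 5.14% of all genes. The median difference of the 9 members was 0.04, beside 0.01 for all genes.

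The other 5 claudins lay close to their control values. Cldn3 and Cldn4, epithelial claudins that also serve as receptors of a clostridial enterotoxin, are next to each other among the measured genes of chromosome 5. Cldn3 had 8.21, 8.11 and 8.05 in knockdown cells, against 7.98, 8.05 and 8.23 in TNF-treated control cells and 7.93, 8.01 and 8.03 in unstimulated control cells. The knockdown range lay inside that of TNF-treated control cells and just above that of unstimulated ones. The difference from TNF-treated control cells was 0.04, with an interval from -0.13 to 0.20 (limma adjusted p = 0.953). Cldn4 averaged 7.76 ± 0.14 in knockdown cells, 7.77 ± 0.07 in TNF-treated and 7.74 ± 0.03 in unstimulated control cells (SD, n = 3 each), and its interval against TNF-treated cells ran from -0.17 to 0.16.

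Cldn5, the main claudin of endothelial cells, averaged 7.64 ± 0.12 in knockdown cells, 7.56 ± 0.16 in TNF-treated and 7.56 ± 0.04 in unstimulated control cells. Cldn7, an epithelial claudin also found on basolateral membranes, had 7.18, 6.90 and 6.88 in knockdown cells, 6.90, 6.99 and 6.78 in TNF-treated control cells and 6.88, 6.86 and 6.97 in unstimulated ones. Knockdown array 1 was the highest of the 9 for both genes, and the other 2 knockdown arrays lay among the controls. The differences from TNF-treated control cells were 0.07 for Cldn5 (interval from -0.13 to 0.27) and 0.10 for Cldn7 (interval from -0.11 to 0.30), with limma adjusted p of 0.916 and 0.882. Cldn12, a claudin that lacks the usual tail for binding PDZ scaffolds, averaged 10.87 ± 0.12 in knockdown cells, 10.88 ± 0.10 in TNF-treated and 10.81 ± 0.07 in unstimulated control cells. The ranges of all 3 groups overlapped, and the difference from TNF-treated control cells was -0.01 (interval from -0.18 to 0.16).

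The membrane proteins outside the claudins were dim in every group, meaning that their group means fell below the first quartile of named genes. Ocln encodes occludin, a strand protein with 4 membrane spans, as claudins have. It averaged 6.10 ± 0.02 in knockdown cells, 6.13 ± 0.10 in TNF-treated and 6.09 ± 0.03 in unstimulated control cells (SD, n = 3 each). F11r encodes JAM-A, an adhesion molecule of the immunoglobulin family, and averaged 6.41 ± 0.06, 6.42 ± 0.06 and 6.41 ± 0.11 in the same order of groups. The intervals of their differences from TNF-treated control cells ran from -0.16 to 0.10 for Ocln and from -0.16 to 0.14 for F11r. For dim transcripts a real change may leave the signal where it is, so these intervals bound the signal and not the RNA.

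Tjp1 encodes the scaffold ZO-1, which also sits at adherens junctions. It had 10.16, 9.74 and 10.00 in knockdown cells, against 9.93, 9.62 and 9.73 in TNF-treated control cells and 9.93, 9.77 and 9.77 in unstimulated control cells. Knockdown array 2 lay within the control range, so the groups overlapped, while arrays 1 and 3 lay above it. The difference from TNF-treated control cells was 0.21 ± 0.11 (SE), with an interval from -0.05 to 0.47 and a limma adjusted p of 0.724. By replicate number the differences were 0.23, 0.13 and 0.27, higher in 3 of 3 pairs, and the fit with the replicate number as a block left Tjp1 short of a call as well (limma adjusted p = 0.143).

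Among the 8 members other than Cldn1, 4 differences between knockdown and TNF-treated control cells were above 0 and 4 below, from -0.03 for Ocln to 0.21 for Tjp1. The lowest limma adjusted p was 0.724 and, without the replicate block, 0 of the 8 passed an unadjusted p under 0.05 either, against 8.43% of all genes. With the block 1 of the 8 did, Tjp1 (limma unadjusted p = 0.00926), and 0 were called after adjustment. Their intervals together spanned -0.18 to 0.47, so that a signal change over 1.39-fold lay outside the interval of each. That Cldn1 differed from each of the others was not tested as such, since signals of different probes were not set against each other. Within genes, the span over the 9 arrays was 3.48 for Cldn1 and lay between 0.20 for Ocln and 0.54 for Tjp1 in the rest.

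**Figure D2:**
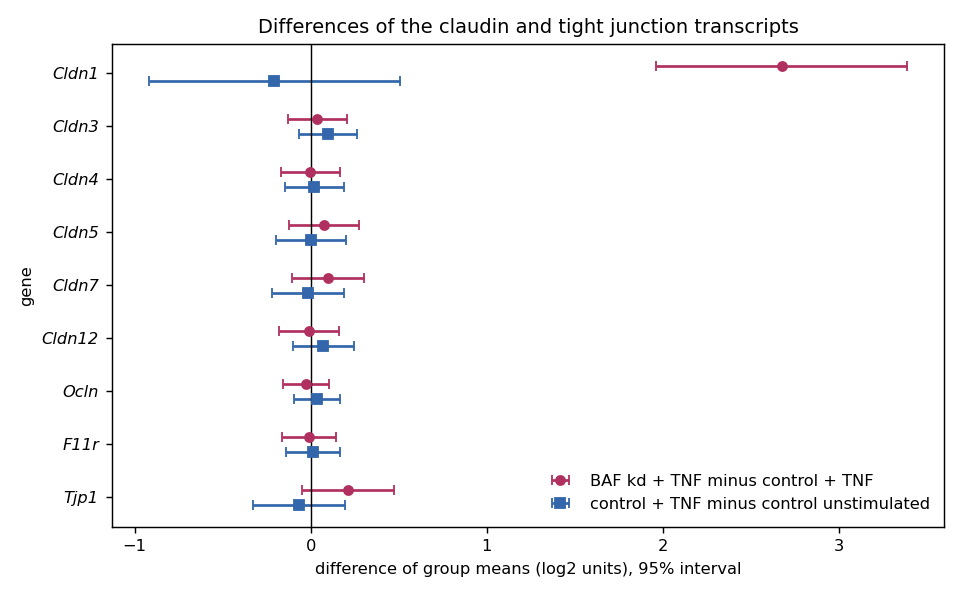
Differences of group means for the 9 transcripts, in log2 units, with 95% intervals from limma. Circles show BAF-knockdown minus control cells, both with TNF, and squares control cells with TNF minus unstimulated control cells. Cldn1 lies at 2.67 in the first comparison and the interval of each other member includes 0.

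The treatment with TNF-α called 0 of the 9 members, against 0.137% of all genes, and 0 of 9 passed an unadjusted limma p under 0.05, against 3.07%. The groups overlapped for all 9, where 5.97% of all genes did not overlap. Cldn1 had a difference of -0.21 between TNF-treated and unstimulated control cells (interval from -0.92 to 0.50), and it was lower in 3 of 3 pairs, by 0.40, 0.14 and 0.08 (log2). The fit pools the spread of all 3 groups, which for Cldn1 was widest among the knockdown arrays. The other 8 lay between -0.07 for Tjp1 and 0.10 for Cldn3, with intervals that spanned -0.33 to 0.26. The limma adjusted p was 1.00 for each of the 9.

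Between knockdown cells and unstimulated control cells, which differ in both the hairpin and TNF-α, 1 of 9 members was called, against 1.12% of all genes. The groups did not overlap for 2 of 9, Cldn1 and Cldn3, against 14.0% of all genes. For Cldn3 the difference was 0.13 (interval from -0.03 to 0.30) with a limma adjusted p of 0.526. The 8 members other than Cldn1 were all above 0, from 0.00 for F11r to 0.15 for Tjp1, and the median over the 9 members was 0.08, beside 0.01 for all genes.

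The place of each array within its group was also looked at. Knockdown array 1 was the highest of its group for 7 of 9 members, all but Cldn1 and Ocln, and it was also the highest of its group for 47.3% of all genes. Knockdown array 3 was the lowest of its group for 6 members and yet the highest for Cldn1. In TNF-treated control cells, array 2 was the highest for 5 members and for 42.4% of all genes. The part of these arrays in the small differences was not tested.

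The genes beside Cldn1 on chromosome 16 were looked up in the RefSeq order (GRCm38.p6), with 3 measured neighbours on each side. P3h2, which encodes a prolyl hydroxylase of collagen chains, is the nearest measured gene on one side. Its signal was 10.19, 9.59 and 10.14 in knockdown cells, against 8.49, 8.73 and 8.02 in TNF-treated control cells and 7.90, 8.73 and 7.68 in unstimulated ones. All 3 knockdown arrays lay above all 6 control arrays, and array 2 was the lowest of the knockdown group for P3h2 as it was for Cldn1. The difference from TNF-treated control cells was 1.56 ± 0.29 (SE) with a limma adjusted p of 0.0941, which the replicate block changed to 0.0251, and by replicate number it was 1.70, 0.86 and 2.11.

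Cldn16, a claudin of kidney tubules and the nearest gene on the other side, was dim in every group. It had 6.50, 6.60 and 6.39 in knockdown cells, against 6.32, 6.45 and 6.30 in TNF-treated control cells. The ranges overlapped and the difference of 0.14 was not called (limma adjusted p = 0.692). Farther out, Trp63, Tmem207 and Il1rap had differences of -0.09, 0.07 and 0.06. Tprg had -0.25, which was not called without the block (limma adjusted p = 0.525) and was called with it (limma adjusted p = 0.0354). Of the 7 genes in this window, the groups failed to overlap upward in the adjacent pair of Cldn1 and P3h2, and overlapped in the 5 others. The window was chosen around Cldn1, and over all genes the groups did not overlap for 10.1% in either direction. Against unstimulated control cells, P3h2 was higher by 1.87 and was called without the block (limma adjusted p = 0.0250) and with it (0.0079). The call without the block was lost in 5 of 9 fits that left out 1 array, namely unstimulated control arrays 1 and 3, TNF-treated control array 1 and knockdown arrays 1 and 3 (limma adjusted p = 0.121, 0.0744, 0.0590, 0.124 and 0.112).

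**Figure D3:**
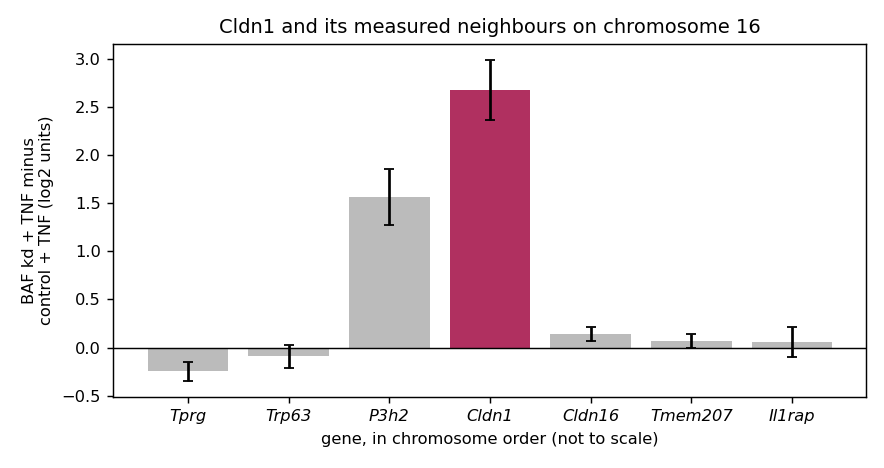
Difference between BAF-knockdown and control cells, both with TNF, for Cldn1 and the 3 measured genes on each side of it on chromosome 16, in log2 units. Bars start at 0, error bars are SE from limma and genes are in chromosome order without scale. Cldn1 stands at 2.67 and P3h2 at 1.56, and the other 5 lie between -0.25 and 0.14.

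Other claudin genes also showed small differences. Of 17 listed, 16 were measured, and 0 were called between knockdown and TNF-treated control cells with or without the replicate block, with 0 at an unadjusted limma p under 0.05. Their differences ran from -0.10 (Cldn24) to 0.14 (Cldn16), with a median of 0.01, which is the median of all genes. The treatment with TNF-α called 0 of the 16 too, against 0.137% of all genes. Between knockdown and TNF-treated control cells, 0.137% of all genes were called without the block and 3.31% with it. An unadjusted limma p under 0.05 was reached there by 8.43%. The counts of the lists below are to be read beside these shares.

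Among 11 other membrane proteins of tight junctions, 0 were called and the median was -0.02, but 2 lay far below it. Clmp, an adhesion molecule related to the coxsackievirus and adenovirus receptor, had 9.77, 10.35 and 9.63 in knockdown cells, against 10.99, 10.99 and 10.87 in TNF-treated control cells. All knockdown arrays were below all control arrays, by 1.03 (log2) in the mean, with a limma adjusted p of 0.0791 without the replicate block and 0.00381 with it. Jam2, which encodes the junctional adhesion molecule JAM-B, had 7.56, 7.50 and 7.43 in knockdown cells and 8.08, 8.16 and 8.68 in TNF-treated control cells. The groups did not overlap, and the difference of -0.81 had a limma adjusted p of 0.105 without the block and 0.0158 with it.

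Against unstimulated control cells, Clmp was called without the block too (difference -0.97, limma adjusted p = 0.0477), but that call was lost on leaving out any single array other than knockdown array 2. The block added Jam2 at -0.75 and Jam3, which encodes JAM-C, at -0.42 (limma adjusted p = 0.0151 and 0.0332). With the block, 3.31% of all genes were called between knockdown and TNF-treated control cells and 5.34% between knockdown and unstimulated control cells.

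The 19 scaffold and polarity proteins measured had 0 calls and a median of 0.03 between knockdown and TNF-treated control cells. With the block, Pard6b was higher by 0.42 and Pard6g lower by 0.60 (log2; limma adjusted p = 0.0284 and 0.0410), and both encode adaptors of the Par polarity complex. Among 12 adherens junction proteins 0 were called without the block. With it, Afdn, which encodes the actin-binding junction protein afadin, was higher by 0.42 and Jup, which encodes plakoglobin, was lower by 0.45 (log2; limma adjusted p = 0.0127 and 0.0165).

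Of 5 transcriptional repressors known to act on claudin or occludin genes, 0 were called without the block. Zeb2 had 10.04, 9.99 and 9.65 in knockdown cells, against 10.83, 10.45 and 10.40 in TNF-treated control cells. Each knockdown array was below each TNF-treated array, and the difference of -0.67 had a limma adjusted p of 0.157 without the block and 0.0033 with it. In the other 4, the differences ran from -0.45 for Snai2 to 0.05 for Zeb1. Snai1 lay between 10.79 and 11.06 in TNF-treated control cells, against 11.20 to 11.54 in unstimulated ones, a difference of -0.45 that was called only with the block (limma adjusted p = 0.795 without it and 0.0194 with it). Against unstimulated control cells, the median of the 5 repressors in knockdown cells was -0.48, beside 0.01 for all genes, with 0 calls without the block and 3 with it. The 3 were Snai2 at -0.60, Snai1 at -0.55 and Zeb2 at -0.48 (limma adjusted p = 0.404, 0.0814 and 0.228 without the block, and 0.0199, 0.00195 and 0.00734 with it). Zeb1 went the other way against unstimulated control cells, higher by 0.18, and passed an unadjusted limma p under 0.05. Between knockdown and TNF-treated control cells, Snai1 differed by -0.13, 0.02 and -0.21 by replicate number. The part of these repressors in the Cldn1 signal was not tested.

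**Figure D4:**
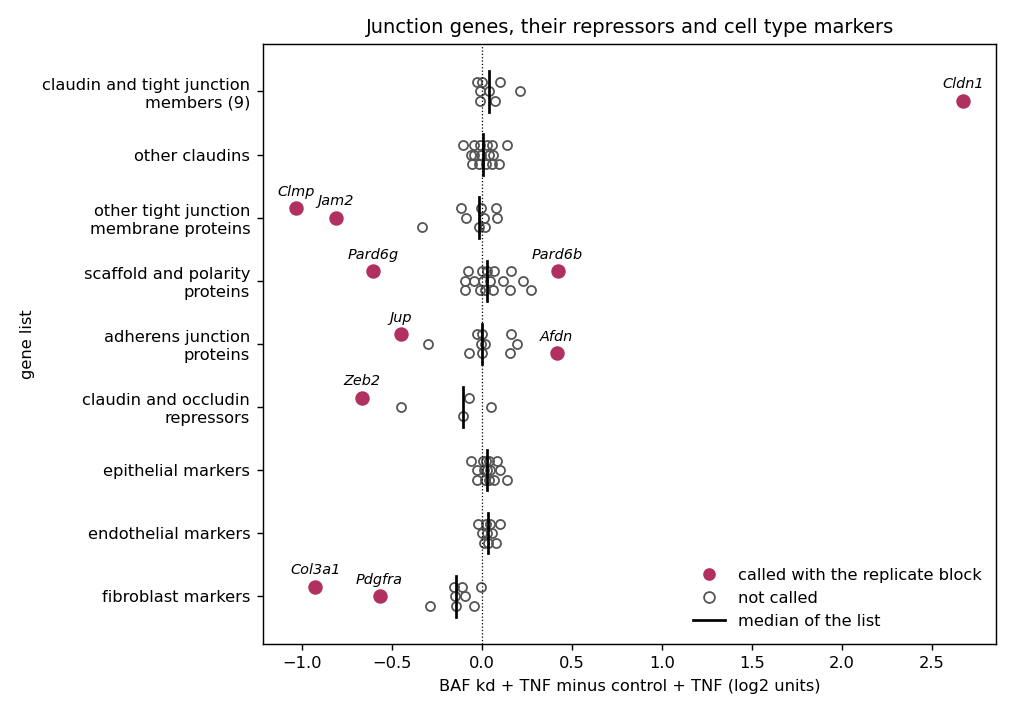
Difference between BAF-knockdown and control cells, both with TNF, for each measured gene of the members and 8 other lists, in log2 units. Filled points are genes called with the replicate block, open points are not called, and the vertical bars are list medians. Cldn1 lies at 2.67, Clmp at -1.03, and the medians lie between -0.15 for the fibroblast markers and 0.04 for the members.

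Since Cldn1 is best known from epithelia, markers of epithelial cells were read beside it. Of 15 epithelial markers, 0 were called in any comparison with or without the block, and the differences between knockdown and TNF-treated control cells ran from -0.06 for Krt19 to 0.14 for Krt5. Only 3 of the 15, Epcam, Esrp1 and Grhl2, were dim in every group, and the rest were dim in none. The summed linear signal of the list was 2209 to 2482 in knockdown cells, 2221 to 2306 in TNF-treated and 2226 to 2303 in unstimulated control cells. Such a sum is weighted toward the genes of highest signal. It can be read between groups for the same list, but not as an amount of marker RNA. Of 10 endothelial markers 0 were called, beside the same shares of all genes. Only 3 of the 10, Kdr, Tek and Emcn, were dim in every group, and the rest were dim in none. The summed signal of the endothelial list was 1472 to 1548, 1456 to 1499 and 1444 to 1489 in the same order.

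Of the fibroblast markers, 9 of 10 lay above the first quartile in every group and Lum below it. The values hold no detection call, so the quartile does not show which markers of any list were present. All 10 had a difference below 0 between knockdown and TNF-treated control cells, with a median of -0.15. None of the 10 was called by limma without the block (0 calls, 2 at an unadjusted p under 0.05), and Col3a1 and Pdgfra were called with it, at -0.93 and -0.57 (limma adjusted p = 0.0035 and 0.0080). Against unstimulated control cells, again all 10 were below 0, with a median of -0.22. Without the block 0 were called there and 7 passed an unadjusted limma p under 0.05, against 12.0% of all genes. With the block 3 were called, Col3a1 at -1.11, Pdgfra at -0.61 and Col1a2 at -0.49 (limma adjusted p = 0.00111, 0.00369 and 0.00544). The summed linear signal of the list was 50134 to 52362 in knockdown cells, 51057 to 60106 in TNF-treated and 55451 to 62027 in unstimulated control cells. Vim and Fn1 had the highest signals of the list and so the largest weight in this sum, and Col3a1 had far less. The part of these markers in the Cldn1 result was not tested.

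The genes whose signals followed that of Cldn1 most closely over the 9 arrays were Tlr3, Swap70, Xaf1, Psme2 and Tap2, each with a Pearson r of 0.98. Those that ran most against it were Lrrc4c at -0.99 and Smarca4, Kdelr3, Zbtb38 and Unc5c at -0.98. Among 19695 genes such values are a description. The 9 arrays fall into the same groups and replicate numbers, and a gene that separates the knockdown arrays gets a high r. None of the other members came near these correlations. Tjp1 had the highest r with Cldn1, 0.63, which was rank 1501, and Ocln the lowest, at -0.10.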

How the data were processed

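RNA was hybridised to Affymetrix mouse Gene ST arrays, and the deposited table holds log2 signals, made by the authors with RMA, which subtracts background, quantile normalizes the arrays and summarises probes by median polish. According to the study's reporting summary, the Bioconductor package affy processed the arrays. Quantile normalization gives all arrays nearly 1 distribution, so a change shared by most genes would not be seen. Values repeated between arrays in 50.9% of the transcript clusters, among them those of Cldn3, Cldn5, Ocln and Tjp1, and 0 pairs of arrays were duplicates. Precision is limited by the number of arrays, 3 per group.

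Symbols came from the platform annotation (21319 transcript clusters with 1 symbol, 1430 with several and 4275 with none), and of 930 genes with more than 1 cluster the one with the highest mean was kept. One mean per group was fitted over all 9 arrays by lmFit and eBayes of limma 3.58.1 (R 4.3.3), with 6 residual degrees of freedom. The tests were two-sided, with Benjamini-Hochberg adjustment over 19698 genes and calls at an adjusted p under 0.05. The fit was tested on simulated data in which arrays varied independently, so the shared deviations described next were not covered. Arrays with the same replicate number deviated together from their group means (r from 0.210 to 0.724 over 9 pairs, against -0.566 to 0.0111 for 18 pairs of different number), so a second fit had the number as a block (4 residual degrees of freedom).

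The 9 members, the ATPase genes, the genes of 8 other lists called with or without the block (at most 4 per list and comparison), the 3 neighbours on each side of a called member and the 5 highest and 5 lowest correlations with Cldn1 were to be named. Genes at the ends of a list's range, dim markers, Snai2 and Zeb1 are named besides, after their values were seen. Members and lists were chosen with earlier results of these data known. Cldn22 was not matched. The alternatives tried were the replicate block, leaving out each array, leaving out dim genes, median centring, repeated quantile normalization, array weights, a mean-variance trend, the mean of all clusters of a gene, and a Student's t-test with and without Benjamini-Hochberg adjustment. The methods name that test, with a difference over 0.35, for genes induced by TNF-α. For effects of the knockdown they name a difference over 0.3 and no test, so its use there is an extension.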

Additional observations from a re-analysis of the deposited data

How the results depend on the processing

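Cldn1 stayed higher in knockdown cells under each of the 18 alternatives, and the 8 other members were called under none of them. Several alternatives change only the test, the set of genes or arrays outside the comparison, and so leave the Cldn1 difference as it was. Since the Cldn1 groups did not overlap, leaving out an array could not reverse its direction. Of 444 values of members that had no call in either fit, 40 changed sign. That 0 moved by more than the replicate SD says little. Leaving out 1 of 3 arrays cannot move a difference that far, and several other alternatives leave the difference unchanged. Leaving out dim genes removed 2 members, Ocln and F11r. The replicate block lowered the limma adjusted p of Cldn1 to 0.00476 against TNF-treated control cells and to 0.0042 against unstimulated ones, and changed no call of a member. A Student's t-test after Benjamini-Hochberg adjustment, which the methods do not apply to the knockdown, lost Cldn1 (2.67 with an adjusted p of 0.724 against TNF-treated control cells, and 2.47 with 0.501 against unstimulated ones), which left 0 members called in either comparison. Leaving out 1 array at a time, in fits without the block, gave 0 to 1 members called, and Cldn1 differences of 2.37 to 3.10 against TNF-treated and 2.16 to 2.89 against unstimulated control cells.

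Counts depended more on the setting. Between knockdown and TNF-treated control cells, 27 genes were called in all, against 652 with the replicate block, 62 with array weights, 433 with the t-test and a difference over 0.3, 0 with that test after adjustment and 6 to 154 on leaving out an array, the highest without knockdown array 2. Of the other junction and repressor genes 0 were called there, against 7 with the block, 4 with the t-test and 0 to 2 without an array, and of the markers 0, against 2 with the block and 1 with the t-test. Between knockdown and unstimulated control cells, 220 genes were called, against 1052 with the block, 638 with the t-test, 0 after its adjustment and 26 to 464 without an array. The junction and repressor genes gave 1 call there, against 9 with the block, 4 with the t-test, 0 after its adjustment and 0 to 4 without an array, and the markers 0, against 3 with the block, 1 with median centring, 2 with array weights, 3 with the t-test and 0 to 1 without an array. For TNF-α, 27 genes were called, against 78 with the block, 41 with array weights, 115 with the t-test, 1 after its adjustment and 9 to 28 without an array, and the junction and repressor genes gave 0, against 1 with the block and 1 with the t-test. Leaving out an array also leaves fewer degrees of freedom. With 3 arrays per group and signals near the lower end for Cldn1 in control cells, Ocln and F11r, small changes of these transcripts were not detectable.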
